A study of Mus musculus with 6 samples.

Results

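The genes described here were 52 mouse genes whose products write, read or remove repressive chromatin marks: subunits of the Polycomb complexes, histone H3 lysine 9 methyltransferases and heterochromatin protein 1 (HP1) proteins, DNA methylation enzymes and readers, CoREST subunits, and histone deacetylases. They were taken by name from the 53801 genes of the count table, and all 52 were present. Their RNA was measured by RNA-seq in one brain hemisphere of adult male mice of the C57BL/6 strain, about 70 weeks old. In 3 mice, called Bahd1-WT (genotype Bahd1+/+), both copies of Bahd1 were intact. In 3 mice, called Bahd1-KO (genotype Bahd1-/-), both copies were inactivated. The study states that the null mutation causes deaths around birth, so the KO mice were animals that had lived to adulthood. A hemisphere mixes all its regions and cell types, and each library was 1 mouse. The question addressed was whether the transcripts of these other silencing factors differ in level when BAHD1 is missing.

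As background, Polycomb repressive complex 2 (PRC2) places methyl groups on lysine 27 of histone H3, and Polycomb repressive complex 1 (PRC1) places ubiquitin on histone H2A and compacts chromatin. HP1 proteins bind methylated lysine 9 of histone H3, the mark of constitutive heterochromatin. DNA methyltransferases mark CpG sites, and proteins with a methyl-CpG binding domain read them. Histone deacetylases remove acetyl groups and act inside larger complexes such as CoREST, NuRD and NCoR. BAHD1 is a heterochromatin protein that is known to associate with the deacetylases HDAC1 and HDAC2. In the mature brain these factors keep silenced the genes of other lineages and limit genes that respond to neuronal activity.

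Depth ranged from 42297150 to 93557948 counts per library. Bahd1 (ENSMUSG00000040007) had 1383, 844 and 1099 counts in the WT libraries and 0, 14 and 1 counts in the KO libraries, so that every library had the level its label gives. Of the 53801 genes, 23975 had a sum of at least 10 counts and were tested, all 52 chromatin genes among them. Levels are given as CPM, counts scaled to the library size after TMM normalization, and every log2 fold change is KO over WT, from 3 against 3 mice. The 6 libraries differed in how level depended on GC content: across expressed genes (13283 with a mean log2 CPM above 1), log2 CPM changed by -0.62 to -0.30 for each 10 points of GC in the WT libraries and by -0.053, 1.04 and 0.37 in KO replicates 1, 2 and 3. Summed markers of neurons overlapped between genotypes (7387 to 8339 CPM in WT, 6845 to 8065 CPM in KO), as did those of oligodendrocytes (4944 to 5749.9 against 5121 to 7754 CPM). At an unadjusted p under 0.05, 3 of 8 neuron markers were higher in KO (Rbfox3, Tubb3 and Slc17a7) and 1 lower (Gad2), and 2 of 7 oligodendrocyte markers were higher (Mbp and Cspg4) and none lower. Markers of lymphocytes and blood summed to 16.2 to 20.1 CPM in WT and 17.1 to 78.5 CPM in KO, with 2 of 6 higher (the hemoglobin genes Hba-a1 and Hbb-bs, at log2 fold changes of 3.19 and 1.99) and 1 lower (Ptprc, -0.86). Astrocyte markers were 2248 to 2480.1 CPM in WT and 2060.1 to 2239 CPM in KO, a lower sum in which 3 of 6 markers were higher (Gfap, Aldh1l1 and S100b) and 1 lower (Aqp4). Markers of choroid plexus and ependyma summed to 253 to 350.1 CPM in WT and 439 to 1075 CPM in KO. Most of this sum was Ttr, at a mean of 269 CPM in WT and 658 CPM in KO. At an unadjusted p under 0.05, 3 of the 6 were higher (Ttr, Foxj1 and Ccdc153) and 1 lower (Kl, -0.40). Lung epithelium markers, which a brain should lack, summed to 2.35 to 110.4 CPM in WT and 0.506 to 1.42 CPM in KO, and their part in any result below was not tested.

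No chromatin gene passed an adjusted p of 0.05 in edgeR's quasi-likelihood test, where 2 of the 23975 genes passed (0.00834%). The genes nevertheless spanned a wide range, from Mbd3, at 7.91 times its WT level in KO, Hdac5 (5.20 times) and Phc2 (3.40 times), to Mtf2, Asxl2 and Ezh2, which were 1.74, 1.62 and 1.58 times higher in WT than in KO. Their lowest adjusted p was 0.0634, a value shared by 1356 genes, of which Mbd3, Hdac5, Phc2 and Ring1 are 4. At an unadjusted p under 0.05, 24 of the 52 differed (46.2%), 18 higher and 6 lower in KO, against 31.8% of all genes tested (19.9% higher, 12% lower) and 41.8% of the 13621 protein-coding genes at 1 CPM or more (28.6% higher, 13.2% lower). With upper-quartile scaling, which moved the median log2 fold change of all genes from -0.061 to -0.20, the split was 15 higher and 10 lower. Their median log2 fold change was 0.063, against -0.061 over all genes tested and 0.022 over the protein-coding genes at 1 CPM or more, so the group as a whole stood near the rest of the transcriptome.

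How many were called depended on the test, the scaling, the filter and single libraries. DESeq2's Wald test called 16 of the 52 at an adjusted p under 0.05 (30.8%). The share was 21.8% of the genes with an adjusted p (18.1% higher, 3.69% lower). Among the protein-coding genes at 1 CPM or more it was 25.7% (22.7% higher, 3.03% lower). The 13 higher in KO were Phf1, Kdm6b, Ring1, Cbx6, Cbx7, Cbx8, Phc2, Bap1, Ehmt2, Mbd3, Hdac5, Hdac7 and Hdac11, and the 3 lower in KO were Ezh2, Mtf2 and Asxl2. With a change of at least 2-fold as well, 9 of the 52 were called (17.3%), all higher in KO. The share was 14.6% of the genes (13.2% higher) and 16.4% of the protein-coding genes at 1 CPM or more (16% higher). Without KO replicate 2, the same test called 13 of the 52, against 17.2% of the genes with an adjusted p.

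The levels of 29 of the 52 genes did not overlap between genotypes, 16 with every KO library above every WT library and 13 with every KO library below, against 39.8% of all genes tested (20.6% above, 19.3% below). In all 29, KO replicate 2 was the library farthest from WT. KO replicate 1 was the nearest to WT in 15 of the 16 higher genes and in 8 of the 13 lower ones. Leaving out KO replicate 2 brought the fold change of 50 of the 52 genes nearer to 0. Leaving out KO replicate 1 raised the number called by edgeR from 0 to 31, against 30% of all genes tested.

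**Figure D1:**
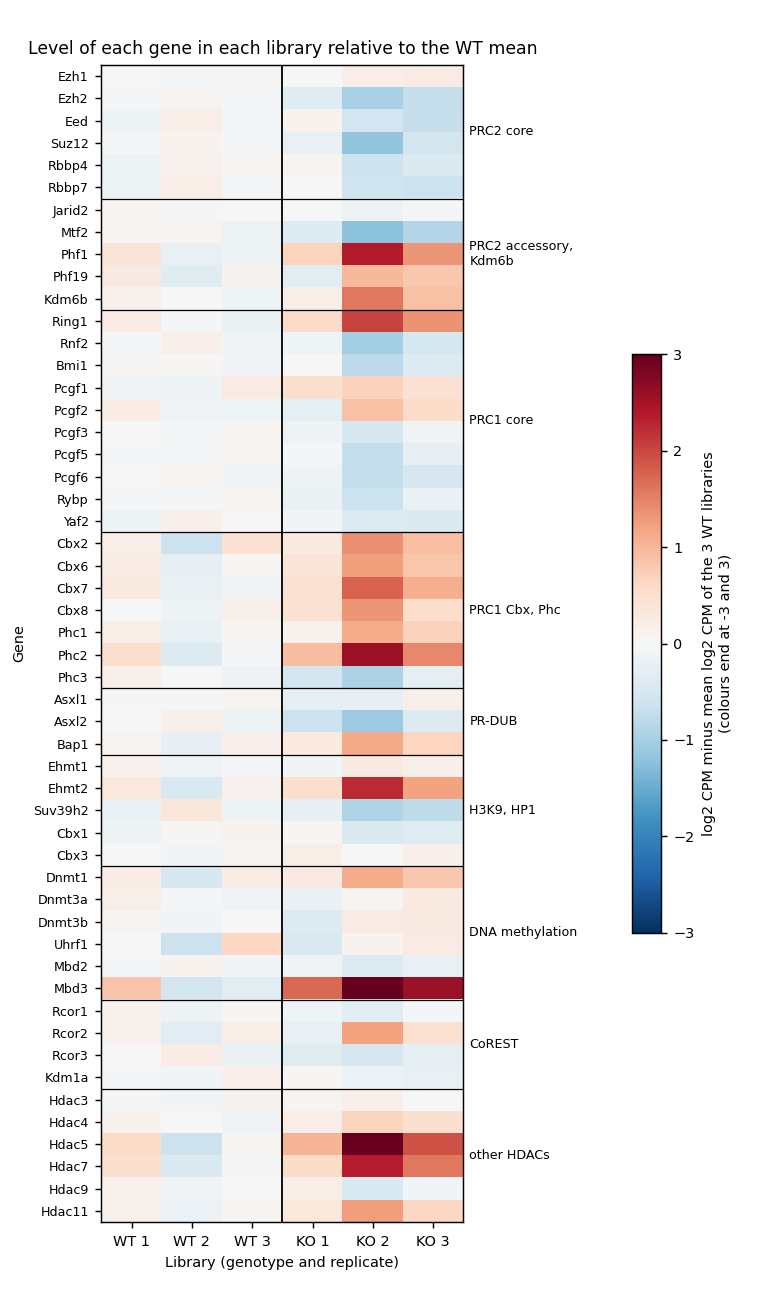
Each row is one of the 52 chromatin genes, ordered by role, and each column one library (3 WT, then 3 KO); the colour is log2 CPM minus the mean log2 CPM of the 3 WT libraries, with colours ending at -3 and 3. KO replicate 2 holds the strongest colours in both directions, and KO replicate 1 is closest to the WT columns.

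Of the 6 PRC2 core genes, Ezh2 and Suz12 were lower in KO at an unadjusted p under 0.05 (2 of 6, against 12% of all genes) and none was higher, and the median log2 fold change of the 6 was -0.37. With an offset for GC content and length, described further on, 1 of the 6 was lower and the median was -0.14. Ezh2, the catalytic subunit that predominates in dividing cells, was at 8.67, 9.38 and 8.64 CPM in the WT libraries and 6.94, 4.56 and 5.39 CPM in the KO libraries. All 3 KO values lay below the WT values, and the log2 fold change was -0.66 ± 0.22 (SE; edgeR adjusted p = 0.0899). Suz12, the scaffold of the complex, was at 80.01, 88.5 and 80.5 CPM in the WT libraries and 71.3, 36.6 and 56.2 CPM in the KO libraries, a log2 fold change of -0.60 ± 0.23 (SE; edgeR adjusted p = 0.123). Its groups did not overlap either, and KO replicate 1 was the nearest to WT.

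Ezh1, the catalytic subunit of non-dividing cells, was at 65.7, 63.2 and 66.7 CPM in the WT libraries and 64.3, 75.3 and 76.8 CPM in the KO libraries. It was the only PRC2 core gene with a positive value, 0.15 ± 0.15 (SE; edgeR adjusted p = 0.509), and its groups overlapped. Per kilobase of exon, Ezh1 was the more abundant of the catalytic pair in WT, at 8.77 ± 0.240 CPM per kilobase against 1.33 ± 0.0624 for Ezh2 (SD, n = 3). Rbbp4, a histone-binding subunit shared with NuRD and Sin3, was at 164, 197 and 185 CPM in the WT libraries and 192, 119 and 134 CPM in the KO libraries, and its groups overlapped (log2 fold change -0.30, edgeR adjusted p = 0.325). Its paralog Rbbp7 was at 169, 216 and 184 CPM in the WT libraries and 191, 124 and 121 CPM in the KO libraries, again with KO replicate 1 inside the WT range (log2 fold change -0.39, edgeR adjusted p = 0.233). Eed, which reads the trimethyl mark, had a log2 fold change of -0.35 (edgeR adjusted p = 0.332) and overlapping groups. Since Ezh2 marks dividing cells, their markers are given beside it: 3 of 7 were lower in KO at an unadjusted p under 0.05 (Mki67, Top2a and Cdk1, at log2 fold changes of -1.76, -1.26 and -0.90) and 1 higher (Mcm2, 0.73), and their sum was 33.5 to 44.8 CPM in WT and 26.5 to 34.0 CPM in KO. WT replicate 3 was the highest library for the 3 lower markers (Mki67 was at 2.72, 1.83 and 6.39 CPM in the WT libraries). Whether fewer such cells or less RNA per cell lay behind these levels cannot be told apart in bulk tissue, and their part in the Ezh2 values was not tested. Of 5 markers of adult neurogenesis, Dcx and Sox11 were lower in KO at an unadjusted p under 0.05 (log2 fold changes of -1.26 and -0.87) and none was higher, again with WT replicate 3 highest (Dcx was at 56.7, 36.6 and 88.7 CPM in the WT libraries). The sum of the 5 was 179.6 to 233 CPM in WT and 124 to 173 CPM in KO, without overlap, and its part in the values of Ezh2 or of any gene below was not tested.

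Among the PRC2 accessory subunits the Polycomb-like proteins differed in direction. Mtf2, a Polycomb-like protein that brings PRC2 to CpG islands, was at 75.01, 76.1 and 64.1 CPM in the WT libraries and 54.7, 30.5 and 38.7 CPM in the KO libraries. The groups did not overlap, and its log2 fold change of -0.80 ± 0.22 (SE; edgeR adjusted p = 0.0670) was the lowest of the 52. Phf1, a Polycomb-like paralog, was at 12.6, 8.16 and 8.56 CPM in the WT libraries and 15.2, 50.1 and 24.2 CPM in the KO libraries, with KO replicate 2 at more than any other library and KO replicate 1 nearest to WT. Its log2 fold change was 1.61 ± 0.41 (SE; edgeR adjusted p = 0.0635). Of the exons of Phf1, 39.3% are overlapped on the opposite strand by Cuta, itself at a log2 fold change of 1.16, and the sources differ on whether the library kit kept the strand, so reads of the pair may not have been told apart. Kdm6b, which removes the methyl groups from lysine 27, was at 12.3, 11.2 and 10.3 CPM in the WT libraries and 12.6, 33.7 and 20.8 CPM in the KO libraries. Its log2 fold change was 0.99 ± 0.33 (SE, edgeR adjusted p = 0.0884). With the offset for GC content and length Kdm6b turned to -0.36, with every KO library below WT. Mtf2 was then at -0.23, also with every KO library below WT, and Phf1 at 0.32 with overlap. Jarid2, which helps PRC2 bind, and Phf19, the remaining Polycomb-like protein, had overlapping groups and log2 fold changes of -0.066 and 0.57 (edgeR adjusted p = 0.780 and 0.289). Phf19 had only 22 to 117 counts per library.

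Of the 10 genes of the PRC1 core, Ring1 and Pcgf1 were higher in KO at an unadjusted p under 0.05 (against 19.9% of all genes) and none was lower, while 5 others (Rnf2, Pcgf3, Pcgf5, Pcgf6 and Rybp) had all KO values below all WT values (against 19.3% of all genes). With the offset for GC content and length none of these 5 lay below WT, and 4 overlapped. Pcgf5 went from a log2 fold change of -0.31 to 0.23 (edgeR adjusted p = 0.222) with every KO library above WT. Ring1, one of the pair of ubiquitin ligases of the complex, was at 6.75, 5.59 and 5.004 CPM in the WT libraries and 8.55, 23.5 and 14.6 CPM in the KO libraries. Every KO library was above every WT library, and the log2 fold change was 1.43 ± 0.35 (SE; edgeR adjusted p = 0.0634). Rnf2, the other ligase, was at 57.6, 66.1 and 56.2 CPM in the WT libraries and 55.1, 29.7 and 41.7 CPM in the KO libraries, a log2 fold change in the other direction of -0.51 ± 0.23 (SE; edgeR adjusted p = 0.163). In WT, Rnf2 was the more abundant per kilobase of exon, at 14.5 ± 1.30 CPM per kilobase against 1.78 ± 0.275 for Ring1 (SD, n = 3).

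Pcgf1, the PCGF protein of a variant PRC1 that binds unmethylated CpG islands, was at 6.39, 6.20 and 8.07 CPM in the WT libraries and 9.93, 11.1 and 9.24 CPM in the KO libraries. The groups did not overlap, the log2 fold change was 0.55 ± 0.20 (SE; edgeR adjusted p = 0.110), and its KO values lay close to each other. Bmi1, the PCGF subunit of canonical PRC1 known for stem cell renewal, was at 87.6, 87.8 and 81.2 CPM in the WT libraries and 84.2, 49.5 and 64.6 CPM in the KO libraries (log2 fold change -0.37, edgeR adjusted p = 0.230), with KO replicate 1 inside the WT range. Its paralog Pcgf2 was at 14.5, 11.5 and 11.2 CPM in the WT libraries and 10.2, 22.6 and 18.1 CPM in the KO libraries and its groups overlapped too (log2 fold change 0.45, edgeR adjusted p = 0.295). The other 5 genes, Pcgf3, Pcgf5, Pcgf6 and the histone-binding Rybp and Yaf2, had log2 fold changes between -0.45 and -0.24, and none reached an unadjusted p of 0.05.

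The chromodomain and Polyhomeotic subunits of canonical PRC1 were the group with the largest share of genes at an unadjusted p under 0.05: all 7, with 6 higher and 1 lower in KO and a median log2 fold change of 0.85, against 31.8% of all genes tested (19.9% higher, 12% lower). With the offset for GC content and length, 1 of the 7 was higher and none lower at that threshold, and their median was 0.18. Phc2, a Polyhomeotic protein whose SAM domain polymerizes PRC1, was at 26.1, 14.1 and 18.2 CPM in the WT libraries and 35.99, 112 and 50.9 CPM in the KO libraries. The KO values spread more widely than the WT values but lay above all of them, and the log2 fold change was 1.77 ± 0.42 (SE; edgeR adjusted p = 0.0634). Phc3, a paralog, was the one lower gene, at 128, 114 and 103 CPM in the WT libraries and 77.6, 59.2 and 93.8 CPM in the KO libraries, with a log2 fold change of -0.58 ± 0.20 (SE; edgeR adjusted p = 0.0926). Phc1 lay between them, at a log2 fold change of 0.68 (edgeR adjusted p = 0.115) with overlapping groups.

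Cbx7, a chromodomain reader of methylated lysine 27, was at 31.5, 22.3 and 24.4 CPM in the WT libraries and 35.6, 87.9 and 54.7 CPM in the KO libraries. No WT library reached the lowest KO library, and its log2 fold change was 1.19 ± 0.31 (SE; edgeR adjusted p = 0.0643). Cbx6, the most abundant of these readers per kilobase of exon in WT (11.5 ± 1.86 CPM per kilobase, SD, n = 3), was at 141, 101 and 125 CPM in the WT libraries and 159, 289 and 214 CPM in the KO libraries, a log2 fold change of 0.86 ± 0.23 (SE; edgeR adjusted p = 0.0654). Cbx8 and Cbx2, the least abundant, had log2 fold changes of 0.82 and 0.85 (edgeR adjusted p = 0.0964 and 0.150), without overlap for Cbx8 and with overlap for Cbx2. The genes of the complex that removes the PRC1 ubiquitin mark differed among themselves. Bap1, its ubiquitin hydrolase, was at 68.3, 54.3 and 71.1 CPM in the WT libraries and 78.1, 141 and 99.4 CPM in the KO libraries, a log2 fold change of 0.72 ± 0.23 (SE; edgeR adjusted p = 0.0847). Its partner Asxl2 was at 48.8, 53.8 and 43.97 CPM in the WT libraries and 30.9, 22.7 and 36.8 CPM in the KO libraries, a log2 fold change of -0.70 ± 0.21 (SE; edgeR adjusted p = 0.0723), and neither gene's groups overlapped. Asxl1, the alternative partner, was at 37.9, 37.8 and 41.7 CPM in the WT libraries and 32.6, 32.9 and 43.3 CPM in the KO libraries with overlapping groups (log2 fold change -0.11, edgeR adjusted p = 0.676). With the offset for GC content and length, Bap1 was at 0.16 and Asxl2 at -0.18, both with overlap. Asxl1 was at -0.34 there (edgeR adjusted p = 0.180) with every KO library below WT.

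**Figure D2:**
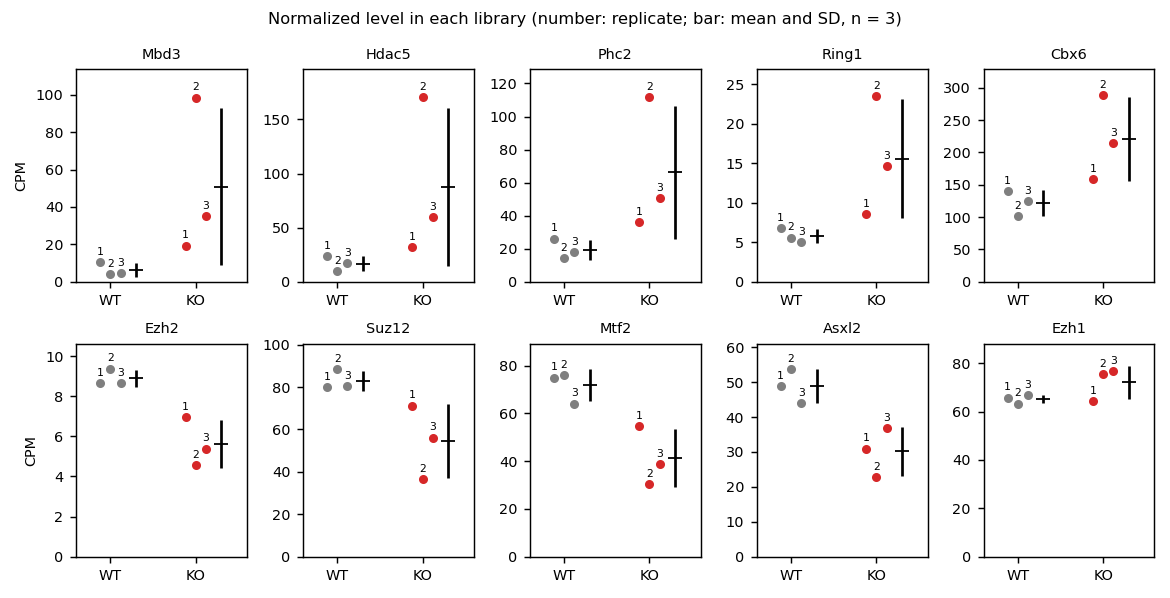
CPM of 10 chromatin genes in each library, with WT in grey and KO in red on axes that start at 0; the number beside a point is the replicate, and the bar is the mean and SD (n = 3). Mbd3, Hdac5, Phc2, Ring1 and Cbx6 have every KO library above WT with replicate 2 highest, Ezh2, Suz12, Mtf2 and Asxl2 have every KO library below WT, and Ezh1 overlaps.

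In the H3K9 and HP1 group, Ehmt2 was higher and Suv39h2 lower in KO at an unadjusted p under 0.05 (against 19.9% and 12% of all genes), and the other 3 genes did not reach it. Ehmt2, which encodes the dimethyltransferase G9a, was at 36.1, 21.1 and 31.5 CPM in the WT libraries and 41.9, 136 and 66.4 CPM in the KO libraries. Its groups did not overlap, and the log2 fold change was 1.46 ± 0.40 (SE, edgeR adjusted p = 0.0659), or -0.037 with the offset for GC content and length. Ehmt1, which encodes GLP, the obligate partner of G9a, was at 26.1, 21.98 and 23.2 CPM in the WT libraries and 22.3, 28.5 and 26.4 CPM in the KO libraries, with overlapping groups and a log2 fold change of 0.11 (edgeR adjusted p = 0.668) that turned to -0.030 with upper-quartile scaling. Suv39h2, which adds methyl groups in constitutive heterochromatin, was at 7.54, 10.98 and 7.80 CPM in the WT libraries and 7.29, 4.64 and 5.06 CPM in the KO libraries, a log2 fold change of -0.63 ± 0.26 (SE; edgeR adjusted p = 0.135), with no overlap between the groups. Of the HP1 genes among the 52, Cbx1 was at 45.6, 52.3 and 55.05 CPM in the WT libraries and 53.2, 37.5 and 39.6 CPM in the KO libraries (log2 fold change -0.23, edgeR adjusted p = 0.397). Cbx3, the HP1 gene found also on active genes, had a log2 fold change of 0.10 (edgeR adjusted p = 0.693), or 0.71 with the offset. Without the offset the groups of Cbx1 and of Cbx3 overlapped. The remaining HP1 gene, Cbx5, is one of the further pathway genes and is named after its values were seen. It was at 311, 333 and 342 CPM in the WT libraries and 264, 169 and 256 CPM in the KO libraries. Every KO value was below WT (log2 fold change -0.52, edgeR adjusted p = 0.113), and Cbx5 was at -0.10 with the offset.

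Mbd3 held the largest fold change of the 52. It encodes a subunit of NuRD with a methyl-CpG binding domain that, in mammals, hardly prefers methylated DNA, and was at 10.6, 4.0003 and 4.66 CPM in the WT libraries and 19.4, 98.5 and 34.98 CPM in the KO libraries. Every KO library was above every WT library, although the KO values themselves were far apart, and the log2 fold change was 2.98 ± 0.62 (SE; edgeR adjusted p = 0.0634). It was 2.09 without KO replicate 2 (edgeR adjusted p = 0.0501). Mbd2, a paralog that does bind methylated DNA, was at 61.3, 67.5 and 58.9 CPM in the WT libraries and 57.9, 47.1 and 53.8 CPM in the KO libraries, with every KO value just below WT (log2 fold change -0.24, edgeR adjusted p = 0.297).

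Dnmt1, the maintenance methyltransferase, was at 31.5, 19.5 and 31.9 CPM in the WT libraries and 32.5, 58.5 and 47.3 CPM in the KO libraries, a log2 fold change of 0.74 ± 0.27 (SE; edgeR adjusted p = 0.108). WT replicate 3 and KO replicate 1 were close to each other, so that the groups met without overlapping. Dnmt3a, the de novo enzyme of the postnatal brain, was at 56.5, 48.9 and 45.8 CPM in the WT libraries and 43.99, 52.7 and 60.5 CPM in the KO libraries with overlapping groups. Its log2 fold change of 0.056 (edgeR adjusted p = 0.845) became -0.084 with upper-quartile scaling, -0.011 without WT replicate 3 and -0.045 without KO replicate 3. Dnmt3b, the de novo enzyme of early development, and Uhrf1, which guides Dnmt1 to replicating DNA, were at 23 to 79 and 16 to 57 counts per library, at log2 fold changes of 0.070 and -0.081 (edgeR adjusted p = 0.876 and 0.897). Of the Uhrf1 transcript, 44.3% is matched by a pseudogene, Gm5648, at 98% identity or more, so reads between them are uncertain.

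None of the 4 CoREST genes reached an unadjusted p of 0.05, against 31.8% of all genes. With the offset for GC content and length 2 were lower (Rcor2 -0.96 and Kdm1a -0.34). With the mean GC content of all transcripts in the offset, Rcor2 stayed lower at -0.77, while Kdm1a turned to 0.18. CoREST joins the demethylase LSD1, encoded by Kdm1a, to HDAC1 and HDAC2 on neuronal genes. Rcor1, its main scaffold, was at 25.03, 20.9 and 23.7 CPM in the WT libraries and 21.1, 18.7 and 22.7 CPM in the KO libraries (log2 fold change -0.16, edgeR adjusted p = 0.548). Rcor2, the scaffold of neural progenitors, was at 3.92, 2.87 and 4.05 CPM in the WT libraries and 3.08, 8.28 and 4.87 CPM in the KO libraries (log2 fold change 0.59, edgeR adjusted p = 0.270), with KO replicate 1 inside the WT range and KO replicates 2 and 3 above it. Rcor3 was at 24.04, 27.9 and 20.9 CPM in the WT libraries and 18.7, 17.1 and 19.95 CPM in the KO libraries, every KO value below WT (log2 fold change -0.39, edgeR adjusted p = 0.177). Kdm1a had overlapping groups and a log2 fold change of -0.12 (edgeR adjusted p = 0.604).

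Among the other histone deacetylases, 4 of 6 were higher in KO at an unadjusted p under 0.05 without overlap (Hdac5, Hdac7, Hdac11 and Hdac4), against 19.9% of all genes, and none was lower. With the offset for GC content and length, 1 was higher (Hdac5) and 1 lower (Hdac11, at -0.27). Hdac5, a class IIa enzyme that leaves the nucleus when neurons fire, was at 23.4, 10.1 and 16.96 CPM in the WT libraries and 32.2, 170.5 and 59.7 CPM in the KO libraries. KO replicate 2 was far above the other KO libraries, and the log2 fold change was 2.38 ± 0.58 (SE; edgeR adjusted p = 0.0634), or 1.46 without it (edgeR adjusted p = 0.0562). Hdac7, a class IIa enzyme best known from endothelial cells and thymocytes, was at 5.68, 3.04 and 3.94 CPM in the WT libraries and 6.02, 20.8 and 12.2 CPM in the KO libraries. KO replicate 1 was only just above the highest WT library, and the log2 fold change was 1.62 ± 0.43 (SE; edgeR adjusted p = 0.0647). Markers of endothelial and mural cells summed to 377 to 434 CPM in WT and 311 to 389 CPM in KO, with 2 of 6 higher at an unadjusted p under 0.05 (Cldn5 2.56 and Pdgfrb 0.86) and none lower, and their part in the Hdac7 values was not tested.

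Hdac11, the only class IV enzyme and enriched in brain, was at 132, 106 and 125 CPM in the WT libraries and 151, 288 and 187 CPM in the KO libraries, a log2 fold change of 0.78 ± 0.24 (SE; edgeR adjusted p = 0.0764). Hdac4, a class IIa enzyme needed for memory, was at 32.2, 30.1 and 28.1 CPM in the WT libraries and 34.8, 47.6 and 42.2 CPM in the KO libraries, a log2 fold change of 0.46 ± 0.17 (SE; edgeR adjusted p = 0.116). Its fold change was the smallest of these 4. Hdac3, the catalytic subunit of NCoR complexes, and Hdac9, the remaining class IIa gene here, had overlapping groups and log2 fold changes of 0.084 and -0.10 (edgeR adjusted p = 0.703 and 0.729).

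The fold changes of these genes were ordered by the GC content of their transcripts. Across the 52 genes, Spearman's rho between log2 fold change and the GC content of the longest transcript was 0.88, against 0.74 over 23940 annotated genes and 0.86 over the expressed genes; genes are not independent replicates, all points share the same 6 libraries, and no test was made. The median was -0.42 over the 16 chromatin genes with 35 to 45% GC, of which 15 were lower in KO, and -0.44 over the expressed genes in that range. The 7 genes with 45 to 50% GC had a median of -0.16 (expressed genes -0.17). The 16 genes with 50 to 55% GC had a median of 0.46 (expressed genes 0.30), and the 13 genes with 55 to 65% GC, 12 of them higher in KO, a median of 1.43 (expressed genes 1.09). Mtf2, the lowest of the 52, has 38.2% GC and Mbd3, the highest, 62.9%. All 6 of the genes lower in KO at an unadjusted p under 0.05 fell in the range of 35 to 45% GC, and all 18 higher ones above 50%. Within the range of 55 to 65% GC, Mbd2 was the one gene with a negative value.

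**Figure D3:**
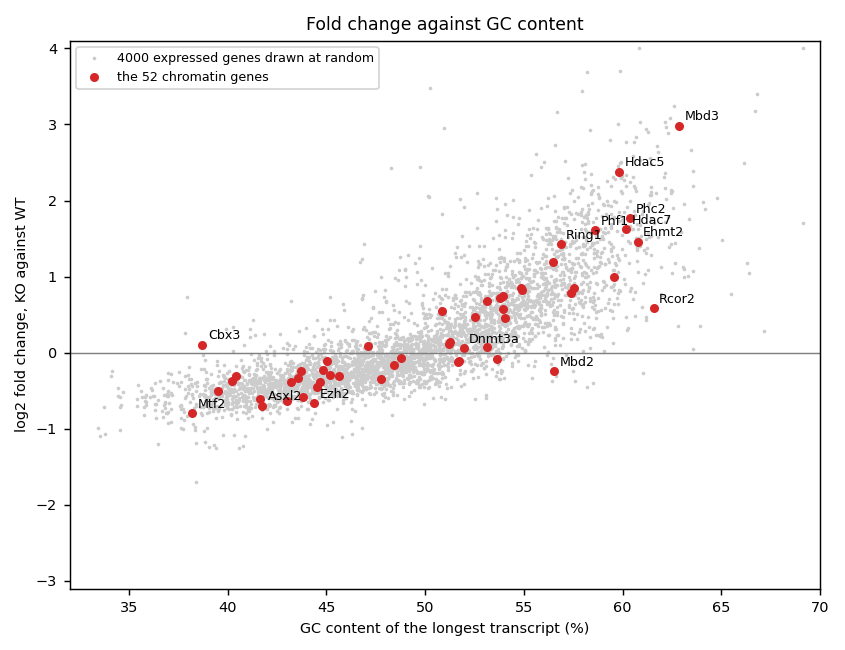
Log2 fold change, KO against WT, on the y axis against GC content of the longest transcript in percent on the x axis, for the 52 chromatin genes (red) and a random sample of expressed genes (grey, values beyond -3 and 4 drawn at those limits). The chromatin genes follow the slope of the grey cloud, from Mtf2 at the lower left to Mbd3 at the upper right, with Mbd2 and Rcor2 below it and Cbx3 above.

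The relation held for the coding part (rho 0.79 with coding GC content, 0.76 with GC content at the third codon position, n = 52). For the promoter, rho was -0.030 with GC content and -0.26 with the count of CpG sites. This covers the 45 genes with a promoter in the RefSeq table of GRCm38.p6. The promoter nearest to the annotated gene start was taken without a limit on distance. That of Cbx7 lay 38473 bases away and that of Hdac4 15358 bases. The promoters of the 45 genes had a median of 28 CpG sites in 300 bases, against 7 over 32851 promoters, with Hdac9 (0), Dnmt1 (2) and Hdac7 (6) below that. The promoters of Mbd3 and Mtf2, the genes with the highest and the lowest fold change, are shown as an example. Both have 60.7% GC, with 22 and 30 CpG sites, given in capitals. The stretch of Mbd3 is chr10:80399482-80399781, minus strand, that of Mtf2 is chr5:108065424-108065723, plus strand. Each runs from 250 bases before to 50 after the start in RefSeq, which for Mbd3 lies 19 bases from the annotated gene start.
Mbd3: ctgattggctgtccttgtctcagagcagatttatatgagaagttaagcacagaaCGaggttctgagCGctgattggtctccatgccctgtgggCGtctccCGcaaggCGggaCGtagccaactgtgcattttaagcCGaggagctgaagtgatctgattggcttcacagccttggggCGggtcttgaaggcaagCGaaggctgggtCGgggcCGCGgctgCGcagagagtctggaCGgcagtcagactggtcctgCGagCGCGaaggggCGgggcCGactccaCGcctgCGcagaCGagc
Mtf2: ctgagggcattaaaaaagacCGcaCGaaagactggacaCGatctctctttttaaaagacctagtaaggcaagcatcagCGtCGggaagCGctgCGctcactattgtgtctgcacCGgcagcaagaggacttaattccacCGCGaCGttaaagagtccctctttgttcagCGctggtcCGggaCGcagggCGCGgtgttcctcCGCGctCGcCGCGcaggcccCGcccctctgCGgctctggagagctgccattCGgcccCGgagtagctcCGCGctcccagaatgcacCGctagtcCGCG

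edgeR's quasi-likelihood fit was therefore repeated with a GC and length offset, a smooth trend of log2 CPM on GC content and length that was removed from each library. The GC slopes of all WT libraries lay below those of all KO libraries. The offset thus also removes any difference between genotypes that follows GC content. A technical trend and a biological one cannot be told apart here, so neither fit is taken as the truer one. With the offset, the fold change was smaller in 42 of the 52 genes, its sign was the other one in 20, and rho with GC content was 0.085. No chromatin gene passed an adjusted p of 0.05 (4 of all genes did, 0.0167%), and the lowest adjusted p was 0.0783. An unadjusted p under 0.05 was reached by 16 of the 52 (30.8%), 8 higher and 8 lower. The share was 21.3% of all genes (9.89% higher, 11.4% lower). Among the protein-coding genes at 1 CPM or more it was 27.9% (14.9% higher, 13% lower). Levels did not overlap for 19 of the 52, against 26.4%, and 9 of the 19 were also apart, in the same direction, without the offset. The median log2 fold change was -0.011, against -0.063 for all genes.

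Mbd3 stayed highest with the offset, at a log2 fold change of 1.17 ± 0.23 (SE; edgeR adjusted p = 0.0783), and Hdac5 followed, at 0.90 ± 0.23 (SE; edgeR adjusted p = 0.0871). In both, every KO library was still above every WT library. The unadjusted p was under 0.05 with the same sign in both fits for 8 genes: Mbd3, Hdac5, Ring1, Phc2, Pcgf1 and Phf1, higher in KO, and Ezh2 and Mtf2, lower. These are 15.4% of the 52, against 11.3% of all genes and 14.3% of the protein-coding genes at 1 CPM or more. Ezh2 had -0.35 ± 0.14 (SE; edgeR adjusted p = 0.185) and Mtf2 -0.23 ± 0.10 (SE; edgeR adjusted p = 0.231). Kdm6b and Hdac11 had an unadjusted p under 0.05 in both fits with opposite signs (0.99 and 0.78 without the offset, -0.36 and -0.27 with it). Ehmt2, at 1.46 without the offset, was at -0.037 with it.

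Rcor2, Mbd2 and Cbx3 had larger fold changes with the offset than without it. Rcor2 was lower in KO with the offset, at -0.96 ± 0.17 (SE, edgeR adjusted p = 0.0783), with all KO libraries below all WT libraries. Its sign without the offset was the reverse. Mbd2 was at -1.08 ± 0.28 (SE; edgeR adjusted p = 0.0878). Cbx3 was at 0.71 ± 0.16 (SE; edgeR adjusted p = 0.0808), with every KO library above WT. The Mbd2 value depended on the transcript used, since its longest transcript has 56.5% GC and its transcripts 51.3% on average: with the mean over transcripts the log2 fold change was -0.34 (edgeR adjusted p = 0.160). Rcor2 and Cbx3 were at -0.77 and 0.65 there, and Ring1, at 0.38 with the longest transcript, was at -0.015. Of the 8 genes with the same sign in both fits, 4 also had an unadjusted p under 0.05 there with that sign (Mbd3 1.39, Hdac5 0.98, Phc2 0.42 and Mtf2 -0.36), while Ezh2 (-0.23), Phf1 (0.28), Pcgf1 (0.19) and Ring1 did not. Kdm6b was at 0.066 and Ehmt2 at 0.20.

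**Figure D4:**
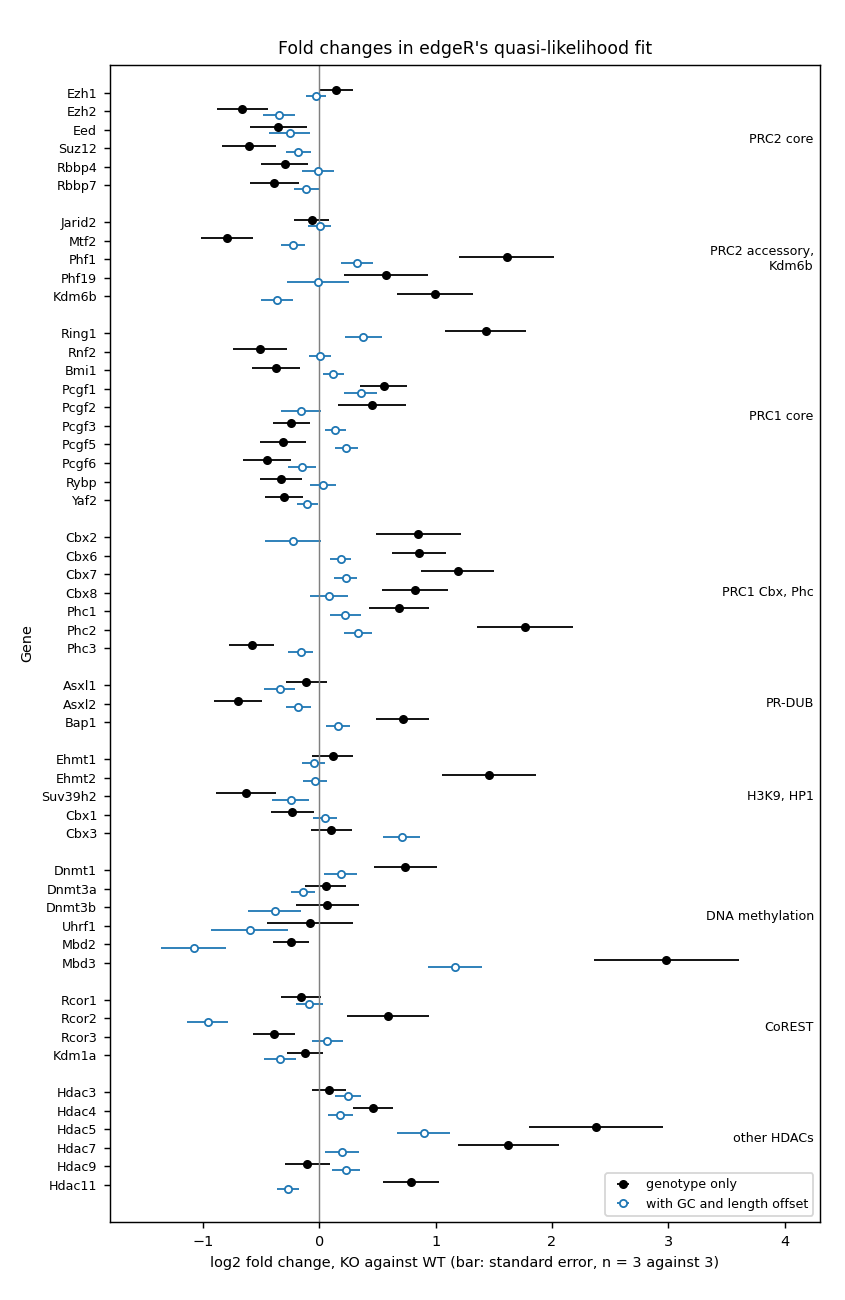
Log2 fold change, KO against WT, with its standard error (n = 3 against 3) for each of the 52 chromatin genes, grouped by role; filled points are edgeR's fit with genotype only, open points the fit with the GC and length offset. Most open points lie nearer to 0 than the filled ones; Mbd3 and Hdac5 stay to the right, and Rcor2 and Mbd2 move to the left.

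Ratios of related genes inside each library do not depend on how libraries are scaled. Of 10 pairs of paralogs or alternative subunits, 6 had ratios that did not overlap between genotypes, and an exact permutation test, two-sided, gave each of these p = 0.1, the lowest value possible with 3 against 3, or 0.167 after Benjamini-Hochberg adjustment over the 10 pairs. The log2 ratio of CPM per kilobase of Phc2 over Phc3 was -0.98, -1.71 and -1.20 in the WT libraries and 0.20, 2.23 and 0.42 in the KO libraries, a difference of 2.25. Without the offset Phc3 was the more abundant in every WT library and Phc2 in every KO library. With the offset the KO ratios were 0.25, 0.22 and -0.25. Ring1 over Rnf2 was -2.74, -3.22 and -3.14 in WT and -2.34, 0.010 and -1.17 in KO, a difference of 1.87. Without the offset Rnf2 exceeded Ring1 in all WT libraries, and the KO libraries ranged from that state to equal amounts in replicate 2. With the offset the KO ratios were -2.23, -1.71 and -1.82, and the groups overlapped.

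Hdac5 over Hdac4 differed by 1.66 (0.39, -0.72 and 0.12 in WT, 0.74, 2.69 and 1.35 in KO) and Ehmt2 over Ehmt1 by 1.21 (1.03, 0.51 and 1.01 in WT, 1.47, 2.82 and 1.90 in KO). Ezh1 over Ezh2 was 2.77, 2.60 and 2.79 in WT and 3.05, 3.89 and 3.68 in KO, a difference of 0.82, with Ezh1 the more abundant in all 6 libraries. Dnmt3a over Dnmt1 was the one pair lower in KO, by -0.69 (-0.33, 0.16 and -0.65 in WT, -0.74, -1.33 and -0.82 in KO). Rbbp4 over Rbbp7, Cbx7 over Cbx6, Pcgf2 over Bmi1 and Rcor2 over Rcor1 overlapped, with differences of 0.088, 0.28, 0.79 and 0.64. The size of the difference went with the difference in GC content between the genes of a pair (Pearson's r 0.82 and Spearman's rho 0.79 over the 10 pairs, as a description), and with the offset it was smaller in 8 of 10. With the offset, Phc2 over Phc3 was 0.49, Ring1 over Rnf2 0.37, Hdac5 over Hdac4 0.69, Ezh1 over Ezh2 0.32, Ehmt2 over Ehmt1 0.018 and Dnmt3a over Dnmt1 -0.34. Of the 6 pairs, 3 still did not overlap (Phc2 over Phc3, Hdac5 over Hdac4 and Ezh1 over Ezh2), and Rcor2 over Rcor1 then lay lower in every KO library, at a difference of -0.87.

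**Figure D5:**
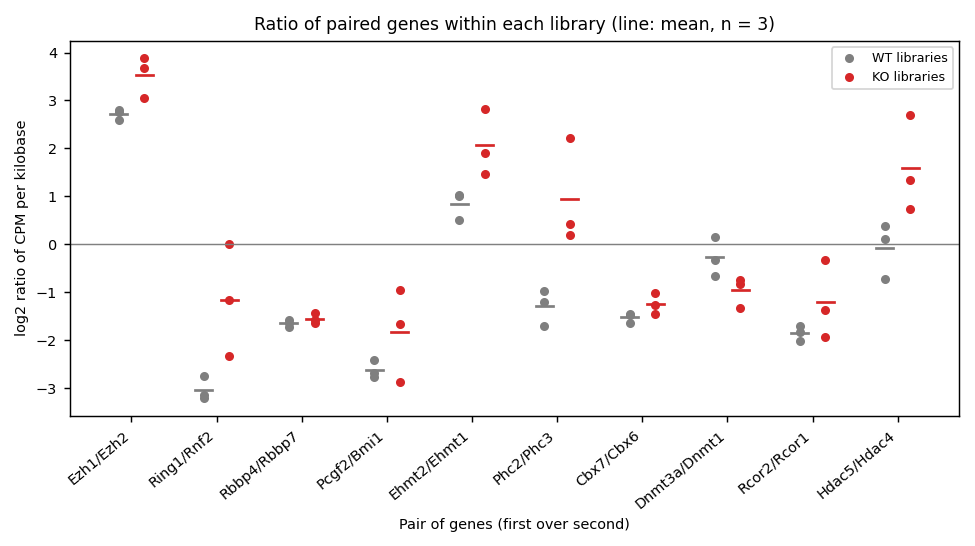
Log2 ratio of CPM per kilobase of exon of the first gene over the second, for 10 pairs, in each WT library (grey) and KO library (red), with the mean as a line (n = 3). The ratios of Ring1/Rnf2, Phc2/Phc3, Ehmt2/Ehmt1, Hdac5/Hdac4 and Ezh1/Ezh2 lie higher in every KO library, those of Dnmt3a/Dnmt1 lower, and those of the other 4 pairs overlap.

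The sequences of the pairs with the largest differences show how paralogs that encode related proteins differ in base composition. The last 90 coding bases of each gene, stop codon included, are given with G and C in capitals, from the GENCODE M21 transcripts of GRCm38: Phc2 (chr4:128751565-128751654, plus strand), Phc3 (chr3:30907336-30907425, minus strand), Ring1 (chr17:34021382-34021471, minus strand) and Rnf2 (chr1:151471316-151471405, minus strand), each within 1 exon. Aligned without gaps, Phc2 and Phc3 are identical at 70 of the 90 bases, and of the 20 that differ 12 have G or C in Phc2 and A or T in Phc3, 4 the reverse and 4 neither. Ring1 and Rnf2 are identical at 61 bases, and of the 29 that differ 17 have G or C in Ring1 and A or T in Rnf2, 6 the reverse and 6 neither. The stretches hold 55.6% GC in Phc2, 46.7% in Phc3, 52.2% in Ring1 and 40% in Rnf2.
Phc2: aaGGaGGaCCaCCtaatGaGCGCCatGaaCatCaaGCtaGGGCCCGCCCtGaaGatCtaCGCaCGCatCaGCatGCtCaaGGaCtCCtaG
Phc3: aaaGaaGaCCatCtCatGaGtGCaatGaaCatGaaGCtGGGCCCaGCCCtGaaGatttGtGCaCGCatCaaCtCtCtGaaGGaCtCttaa
Ring1: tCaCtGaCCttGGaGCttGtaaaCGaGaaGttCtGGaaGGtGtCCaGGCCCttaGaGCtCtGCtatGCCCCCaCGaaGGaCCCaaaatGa
Rnf2: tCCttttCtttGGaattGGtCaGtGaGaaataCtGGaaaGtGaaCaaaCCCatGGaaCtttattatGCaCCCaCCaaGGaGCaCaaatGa

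The other genes of these pathways split in both directions as well. Of 105 further genes of the Polycomb, H3K9 and HP1, DNA methylation, and CoREST, NuRD, Sin3 and NCoR machineries, 104 were tested. None passed an adjusted p of 0.05 in edgeR's test, 31 were higher and 28 lower in KO at an unadjusted p under 0.05 (19.9% and 12% of all genes, 28.6% and 13.2% of the protein-coding genes at 1 CPM or more), and DESeq2 called 26 higher and 8 lower (18.1% and 3.69% of all genes with an adjusted p). Their median log2 fold change was 0.043, and with the offset 11 were higher and 17 lower at an unadjusted p under 0.05 (9.89% and 11.4% of all genes).

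Among the other Polycomb genes (10 higher and 8 lower of 32, or 4 and 4 with the offset), Epop, a PRC2 cofactor, was at 9.81, 9.07 and 10.1 CPM in WT and 18.4, 37.5 and 16.2 CPM in KO, a log2 fold change of 1.31 ± 0.32 (SE; edgeR adjusted p = 0.0634) and -0.59 with the offset. L3mbtl2, of a variant PRC1, was at 17.7, 11.95 and 15.8 CPM in WT and 20.8, 38.7 and 30.8 CPM in KO, a log2 fold change of 0.99 ± 0.26 (SE; edgeR adjusted p = 0.0643). Both had every KO library above WT. Of the other H3K9 and HP1 genes (6 higher and 7 lower of 21, or 2 and 1 with the offset), Trim28, the KAP1 corepressor, had a log2 fold change of 1.18 ± 0.28 (SE; edgeR adjusted p = 0.0634) and -0.11 with the offset. Wiz, a zinc-finger partner of G9a and GLP, had 1.63 ± 0.41 (SE; edgeR adjusted p = 0.0634) and 0.59 with the offset.

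Of the other DNA methylation genes, 5 of 13 were lower and none higher at an unadjusted p under 0.05, against 12% lower of all genes and 13.2% of the protein-coding genes at 1 CPM or more. With the offset 5 were lower too (11.4% of all genes), but Tet2 and Hells were the only genes in both counts. Hells, a chromatin remodeller needed for DNA methylation, was at 5.78, 7.85 and 5.52 CPM in WT and 3.65, 2.23 and 3.59 CPM in KO (log2 fold change -1.02 ± 0.27 (SE; edgeR adjusted p = 0.0645)). Tet2, which oxidizes methylated cytosine, was at 49.03, 51.3 and 35.8 CPM in WT and 27.1, 22.1 and 31.3 CPM in KO (log2 fold change -0.76 ± 0.21 (SE; edgeR adjusted p = 0.0650)). Every KO value of both genes was below WT, and with the offset they were at -0.41 and -0.42. Of the CoREST, NuRD, Sin3 and NCoR genes (15 higher and 8 lower of 38, or 5 and 7 with the offset), Mier2, an HDAC1 and HDAC2 partner, had the lowest p-value, with a log2 fold change of 2.12 ± 0.52 (SE; edgeR adjusted p = 0.0634) and 0.53 with the offset.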

How the data were processed

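RNA-seq counts of one brain hemisphere of each of 3 Bahd1-WT and 3 Bahd1-KO mice were used, grouped by the genotype in the sample titles. Reads were trimmed with cutadapt 1.11, aligned to GRCm38 and counted on exons per gene with featureCounts 1.4.6-p3 by the authors, who deposited whole-number counts without normalization or filter. STAR 2.5.0a is named in the submitters' processing notes, and the supplementary methods name Tophat2 too. The table held 0 columns from elsewhere. The authors' adjusted comparison was not used.

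A total of 10 or more counts over the 6 libraries was required, which kept 23975 genes for the test with edgeR 4.0.16 (R 4.3.3): TMM, quasi-likelihood fit, genotype as the only factor, Benjamini-Hochberg adjustment over all genes tested. DESeq2 1.42.0 was an alternative. The offset was a natural spline on GC content (5 degrees of freedom) and log length (3), fitted per library to 13283 expressed genes. Annotation was GENCODE M21 of GRCm38, which lacked 35 tested genes. Promoters came from RefSeq. Near-identical copies were stretches of at least 65 bases at 98% identity. The edgeR and DESeq2 fits and the offset were tested on simulated counts, and the other steps were not. Depth was 42297150 to 93557948 counts per library. The p-values of edgeR and DESeq2 set the difference between genotypes against the spread between mice of the same genotype. Each mouse gave 1 library, so this spread includes differences between libraries.

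The 52 genes, the pathway and marker lists and the pairs were chosen with earlier results of these data known. In each role group the 3 genes of lowest unadjusted p, and both genes of each pair, are given with values in every sample; of the further pathway genes, the 2 of lowest p in each list. One of these further genes is not reported here. Alternatives were other scalings, filters and tests, leaving out each sample, the replicate block, and the offset alone or with the block.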

Additional observations from a re-analysis of the deposited data

How the results depend on the processing

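With 3 mice per genotype and KO libraries that differed widely among themselves, counts of calls turned on the test and on single libraries. edgeR's quasi-likelihood test with genotype only called 0 of the 52 genes, and so did DESeq2 size factors in edgeR, upper-quartile factors, filterByExpr, robust shrinkage, the replicate block, and the GC and length offset alone or with the block. Total counts without further scaling called 9 (9.4% of all genes), the inclusion of every gene with at least 1 count 14 (11%), edgeR's likelihood-ratio test 14 (17%), and the Wald test of DESeq2 16 with its normal prior and 16 without (21.8% of the genes with an adjusted p in both). DESeq2 without KO replicate 2, chosen after seeing the data, called 13 (17.2%). Leaving out each replicate in turn gave 0 to 31 called (31 without KO replicate 1, 0 without each of the others), 14 to 36 at an unadjusted p under 0.05 (14 without WT replicate 2, 36 without KO replicate 1), and a median log2 fold change of -0.032 to 0.12 (-0.032 without KO replicate 3). The median was -0.082 with upper-quartile factors, 0.14 with total counts, -0.011 with the offset and -0.027 with offset and block, and the cause was not tested for the scalings.

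Same-numbered libraries did not deviate together: the correlations of their deviations were -0.64, -0.66 and -0.14, so the numbers were not taken as pairs. The replicate block left 17 of the 24 genes at an unadjusted p under 0.05, and 7 remained with the offset and the block, of which 3 were among the 24. In the pairs of genes, the replicate block cannot give a p under 0.25.

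Among the 35 genes given with full statistics, the sign changed as follows; over all 52 it changed in 20 with the offset and in 2 without KO replicate 2 (Dnmt3b -0.023 and Hdac9 0.044). With upper-quartile factors: Ehmt1 -0.030 and Dnmt3a -0.084. With the GC and length offset: Ezh1 -0.030, Kdm6b -0.36, Rnf2 0.0050, Bmi1 0.12, Pcgf2 -0.16, Ehmt1 -0.048, Ehmt2 -0.037, Cbx1 0.051, Dnmt3a -0.14, Rcor2 -0.96, Rcor3 0.069 and Hdac11 -0.27. With the offset and the replicate block: Ezh1 -0.030, Kdm6b -0.35, Rnf2 0.0048, Bmi1 0.12, Pcgf2 -0.18, Ehmt1 -0.048, Ehmt2 -0.031, Cbx1 0.052, Dnmt3a -0.14, Rcor2 -0.96, Rcor3 0.068 and Hdac11 -0.27. With the mean GC content of all transcripts in the offset, a setting chosen after seeing the data that left 13 genes at an unadjusted p under 0.05: Suz12 0.044, Ring1 -0.015, Bmi1 0.031, Pcgf2 -0.28, Cbx6 -0.32, Asxl1 0.066, Bap1 -0.041, Cbx1 0.011, Dnmt3a -0.47, Rcor1 0.028, Rcor2 -0.77 and Hdac11 -0.15. Leaving out each replicate in turn moved Dnmt3a between -0.045 and 0.20 (-0.011 without WT replicate 3, -0.045 without KO replicate 3). The ratio of Pcgf2 over Bmi1 reversed to -0.30 and that of Rcor2 over Rcor1 to -0.87 with the offset, under which the groups of 19 genes did not overlap. DESeq2 size factors, total counts, the other filters and tests and the replicate block without offset reversed none of the 35 genes given with full statistics. Depth limits Phf19, Cbx2, Dnmt3b and Uhrf1, with 16 to 333 counts per library.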

Other observations

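Exons of 23 of the 52 genes overlap exons of another annotated gene, 4 of them on the same strand. Some neighbours on the opposite strand were expressed, while others, such as Gm26720 at Hdac4 and F530104D19Rik at Pcgf5, had 0 counts in every library. Cuta, across 1370 bases of Phf1, had 1099, 610 and 883 counts in WT and 887, 3604 and 1028 counts in KO, a log2 fold change of 1.16 beside 1.61 for Phf1. Tmed5, across 395 bases of Mtf2, had 6681, 4769 and 4832 counts in WT and 2717, 2879 and 2940 counts in KO, a log2 fold change of -0.59 beside -0.80 for Mtf2. Slc48a1, which meets Hdac7 over 29 bases, had 9141, 4493 and 6889 counts in WT and 5135, 19521 and 8533 counts in KO, a log2 fold change of 0.82 beside 1.62 for Hdac7. Dclre1c, across 357 bases of Suv39h2, had 1180, 737 and 895 counts in WT and 404, 649 and 579 counts in KO, a log2 fold change of -0.51 beside -0.63 for Suv39h2. In these cases neighbour and chromatin gene had values of the same sign. Trmt1l, across 158 bases of Rnf2, had -0.19 beside -0.51, and Apobec3, on the strand opposite Cbx7, -0.24 beside 1.19. These neighbours were chosen after their values were seen.

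Per kilobase of exon, the 52 genes spanned a wide range of levels in WT. Rbbp7 (65.2 ± 8.25 CPM per kilobase, SD, n = 3), Yaf2 (53.2 ± 5.66) and Hdac11 (31.5 ± 3.55) were highest, with Rbbp7 and Yaf2 apart by less than the sum of their SDs, and Dnmt3b (0.138 ± 0.00777), Phf19 (0.127 ± 0.0275) and Uhrf1 (0.126 ± 0.0535) were lowest and indistinguishable within their SDs. Spearman's rho between log2 fold change and mean CPM in WT was -0.41 over the 52 genes, as a description.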
